A study of Rattus norvegicus with 16 samples.

Results

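Late disease was set against the acute phase in the monosodium iodoacetate (MIA) model of knee osteoarthritis: 4 arrays of rat knee tissue taken 28 days after the injection against 4 taken 2 days after it, out of 16 arrays in the series. The arrays were chosen by the day in their titles, and every probe set on them entered the comparison. All 8 came from male Wistar rats that had received MIA once, at 3 mg. The day 28 and day 2 groups therefore share the agent, dose, sex and strain and differ by design in the time since the injection. Age at collection is not given in the study's methods, so age and time since the injection cannot be told apart. The other 8 arrays were 4 from day 14 after MIA and 4 from intact rats, which received no injection, and no vehicle-injected rats were analysed here. The tissue, labelled knee cartilage, was by the study's methods the meniscus and the articular cartilage of both bones, and it took in a little capsule and bone. By the study's methods the RNA of 2 rats was pooled for each array, which gives 8 rats a group, whereas the labels describe individual rats and give each array 1 animal number. Each rat contributed to 1 time point only, so no joint was followed over time, and p-values measure the spread between these arrays.

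MIA blocks a glycolytic enzyme, glyceraldehyde-3-phosphate dehydrogenase. In the joint it kills chondrocytes, the cells that make and maintain cartilage matrix, and it starts an acute inflammation of the synovium that later subsides while cartilage and subchondral bone go on changing. Cartilage matrix is built of type II collagen and the large proteoglycan aggrecan, whereas the capsule, the meniscus and scar tissue are rich in type I collagen and its companions. Fat pad, marrow, vessel and muscle border the dissected tissue.

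Transcript abundance was read on Rat Gene 2.0 ST arrays, and every value below is log2 signal. A difference is the day 28 mean minus the day 2 mean on that scale, so 1 is a doubling and a negative value is lower at day 28; ± after a difference is its standard error in limma's fit. Values of single arrays stand in the order of replicates 1 to 4, a number taken from the array titles and not used to pair arrays in the main fit. A probe set was called when its p, adjusted by Benjamini-Hochberg over all 36685 probe sets, was under 0.05. The medians of the 8 arrays lay between 6.57 and 6.65, and any 2 of them correlated at 0.966 to 0.991 across probe sets. Each gene was represented by its brightest probe set, which gave 18166 genes with 1 symbol, and their median difference was 0.04. In this bulk tissue fewer cells of a type and less RNA per cell cannot be told apart.

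Marker genes of neighbouring tissues differed in signal between arrays, and the amount of each tissue was not measured. The mean over 35 neutrophil, erythroid and marrow progenitor genes was 7.45, 8.95, 7.96 and 7.15 on the day 28 arrays, against 9.37, 9.08, 8.73 and 8.89 on the day 2 arrays. Thus 3 day 28 arrays lay below every day 2 array, and the fourth, replicate 2, lay within the day 2 range. The mean over 25 skeletal muscle genes ran between 6.51 and 8.67 at day 28 and between 6.63 and 8.36 at day 2, and no member of that list was called. Its median difference was 0.36 and ran between 0.03 and 0.81 with single arrays left out, lowest without day 2 replicate 3 and highest without day 28 replicate 1. Acta1, the actin of skeletal muscle, read 7.93, 10.58, 11.07 and 11.32 at day 28, against 9.92, 9.72, 8.35 and 11.12 at day 2, so the 2 groups overlapped widely. Marrow signal moved with the time point and muscle signal varied within it. Where a list's count changed by over 1.5 times and by more than 1 gene with either signal as a covariate, both counts are given; the part of these tissues in the differences was not tested.

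At day 28 3802 probe sets were higher than at day 2, which is 10.4% of those tested, and 4463 were lower, 12.2%, so that 22.5% were called in one direction or the other. A difference over 2-fold was reached by 464 probe sets in the higher direction (1.26%) and by 743 in the lower (2.03%). Among genes with 1 symbol 2629 were higher (14.5%) and 3128 were lower (17.2%). In 3231 genes all 4 day 28 arrays lay above all 4 day 2 arrays (17.8%), and in 3681 they lay below (20.3%). These shares are the background against which the gene lists below are read. With the marrow genes as a covariate 2104 probe sets were higher, and without the 2 day 28 arrays that have the least marrow signal, replicates 1 and 4, the number was 2517.

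**Figure D1:**
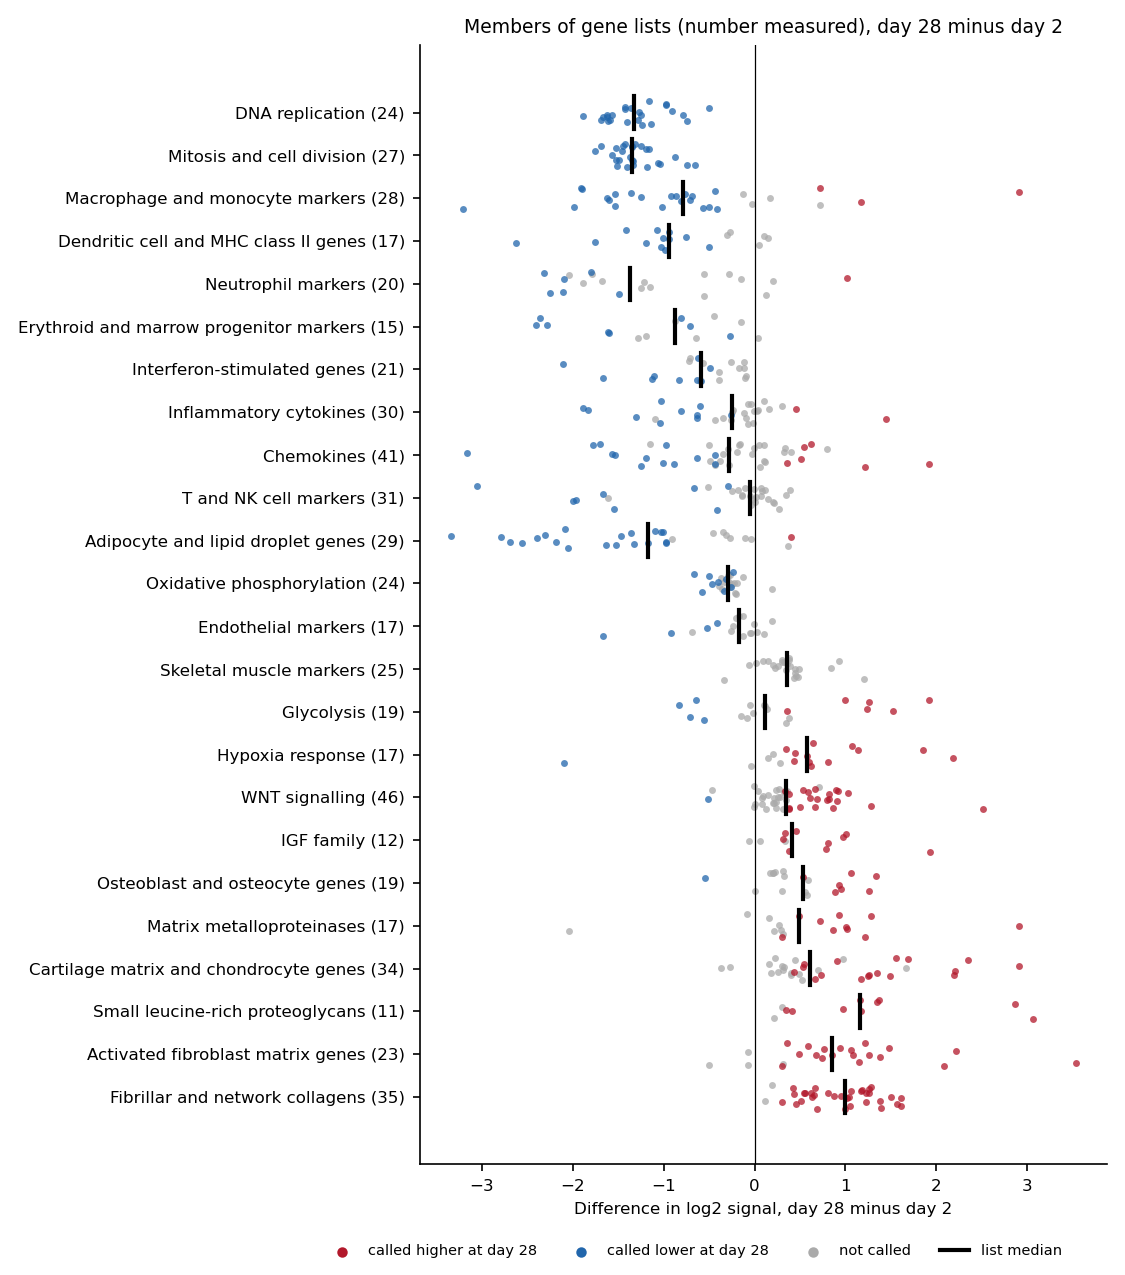
Difference in log2 signal, day 28 minus day 2 (horizontal axis), for the measured members of 24 gene lists, 1 point per gene; red points were called higher, blue points lower and grey points did not pass adjusted p under 0.05, and the black bar is the list median. Points of the cell division, macrophage and adipocyte lists lie mostly left of zero and those of the collagen, proteoglycan and cartilage lists mostly right of it.

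C1qtnf3 and Gpr15lg, both secreted proteins, had the 2 largest rises at day 28. C1qtnf3, a secreted relative of adiponectin made by fibroblasts and cartilage cells, read 10.33, 9.63, 10.11 and 10.26 at day 28, against 7.28, 6.84, 6.21 and 5.86 at day 2. It had the largest rise of all genes with 1 symbol, 11.6-fold (3.53 ± 0.25, adjusted p = 1.82e-07), and its level on intact arrays averaged 7.05. Gpr15lg, a small secreted ligand of the lymphocyte receptor GPR15, read 11.32, 10.62, 11.05 and 11.79 at day 28, against 8.25, 7.80, 7.38 and 7.96 at day 2 (3.35 ± 0.23, adjusted p = 1.63e-07). Every day 28 array lay more than 2 units above every day 2 array for both genes.

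The 15 largest rises also held Tnmd, Kera and Fndc1. Tnmd, tenomodulin, a membrane glycoprotein of tendon, read 9.57, 8.89, 9.46 and 9.61 at day 28, against 7.21, 6.59, 6.53 and 5.53 at day 2, a difference of 2.92 ± 0.30, adjusted p = 4.88e-06. Kera, keratocan, a proteoglycan best known from the cornea, read 8.85, 8.57, 8.67 and 9.29 at day 28, against 7.19, 6.35, 5.30 and 5.06 at day 2 (2.87 ± 0.40, adjusted p = 7.99e-05). Fndc1, an extracellular protein with fibronectin type III domains, read 11.25, 11.02, 11.20 and 11.30 at day 28, against 9.16, 8.66, 8.59 and 8.21 at day 2 (2.54 ± 0.15, adjusted p = 5.52e-08). In all 3 the day 28 arrays were tightly grouped and the day 2 arrays more spread, with replicate 1 the highest of the day 2 arrays.

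Nupr1, Kcnma1, Lancl3, C20h10orf105 and Gnas were others of these 15. Nupr1, a small chromatin protein induced by many stresses, had the smallest adjusted p of the genes named here and read 11.80, 11.98, 11.85 and 11.95 at day 28, against 9.46, 9.34, 9.28 and 9.25 at day 2 (2.56 ± 0.10, adjusted p = 1.96e-09). Kcnma1, the pore subunit of the large-conductance calcium-activated potassium channel, read 10.26, 10.26, 10.32 and 10.33 at day 28, against 8.16, 7.69, 7.39 and 7.55 at day 2 (2.59 ± 0.13, adjusted p = 1.7e-08). Lancl3, a member of the LanC-like family, rose by 2.60 ± 0.17, adjusted p = 9.3e-08. C20h10orf105, an uncharacterised gene, rose by 2.84 ± 0.17, adjusted p = 5.52e-08. Gnas, named for the stimulatory G protein alpha subunit, has 2 probe sets here. The one brighter over all arrays rose by 2.84 ± 0.34, adjusted p = 2.35e-05, from a day 2 mean of 6.38, below every array median. The other rose by 1.02 (adjusted p = 0.000214) and was the brighter at day 2, at 6.70. Which transcripts of the gene they read was not tested.

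Genes of cell division were lower at day 28 without exception among those listed. All 24 measured DNA replication genes and all 27 measured mitosis genes were called lower, with median differences of -1.32 and -1.35, and in every one of the 51 all day 28 arrays lay below all day 2 arrays. The mean over the replication genes ran between 7.48 and 7.86 at day 28 and between 8.82 and 8.94 at day 2. With marrow genes as a covariate 23 of 24 replication genes and all 27 mitosis genes were lower.

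Origin licensing and the replicative helicase come first in that process. Cdc6, which loads the helicase onto origins, read 6.46, 7.21, 6.26 and 6.38 at day 28, against 8.36, 8.47, 8.61 and 8.42 at day 2 (-1.88 ± 0.21, adjusted p = 1.07e-05). Mcm5 and Mcm6, subunits of the helicase itself, had similar falls. Mcm5 read 8.21, 8.56, 8.31 and 8.24 at day 28, against 10.09, 9.93, 9.95 and 9.84 at day 2 (-1.62 ± 0.12, adjusted p = 2.25e-07). Mcm6 read 7.37, 7.69, 7.32 and 7.36 at day 28, against 8.99, 9.09, 9.09 and 9.03 at day 2 (-1.61 ± 0.11, adjusted p = 1.04e-07). Neither gene had overlapping groups, and the difference was far larger than the spread within either group. Mcm10, which helps to activate the helicase, fell by 1.69, Orc1 of the origin recognition complex by 1.59 and Gins1 of the helicase complex by 1.57.

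Nucleotide supply and the polymerases behaved the same way. Rrm2, the regulated subunit of ribonucleotide reductase, read 9.41, 9.55, 8.93 and 9.16 at day 28, against 10.87, 11.03, 11.13 and 10.69 at day 2 (-1.67 ± 0.17, adjusted p = 4.77e-06), and its dimmer probe set gave -1.78. Pole2, a subunit of DNA polymerase epsilon, fell by 1.62 on the log2 scale.

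Mitotic kinases and structural proteins followed. Ttk, a kinase of the spindle checkpoint, read 6.94, 7.32, 6.84 and 6.71 at day 28, against 8.69, 8.71, 8.91 and 8.53 at day 2 (-1.76 ± 0.15, adjusted p = 1.13e-06). Ccnb1, cyclin B1, read 7.94, 8.09, 7.75 and 7.66 at day 28, against 9.62, 9.54, 9.65 and 9.41 at day 2 (-1.69 ± 0.15, adjusted p = 1.65e-06), and its partner kinase Cdk1 read 7.57, 7.78, 7.39 and 7.57 at day 28, against 8.91, 9.19, 9.22 and 9.04 at day 2 (-1.51 ± 0.13, adjusted p = 1.02e-06). Mki67, the antigen used to mark cycling cells, read 10.08, 10.61, 9.96 and 9.91 at day 28, against 11.75, 11.69, 11.62 and 11.47 at day 2 (-1.49 ± 0.19, adjusted p = 3.72e-05). For each of these 4 genes day 28 replicate 2, the day 28 array with the most marrow signal, was the highest of its group and still lay below the lowest day 2 array. Top2a, a topoisomerase that untangles chromosomes, Bub1b of the spindle checkpoint, Nuf2 of the kinetochore and the kinase Melk fell by 1.46, 1.56, 1.52 and 1.52 on the log2 scale.

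**Figure D2:**
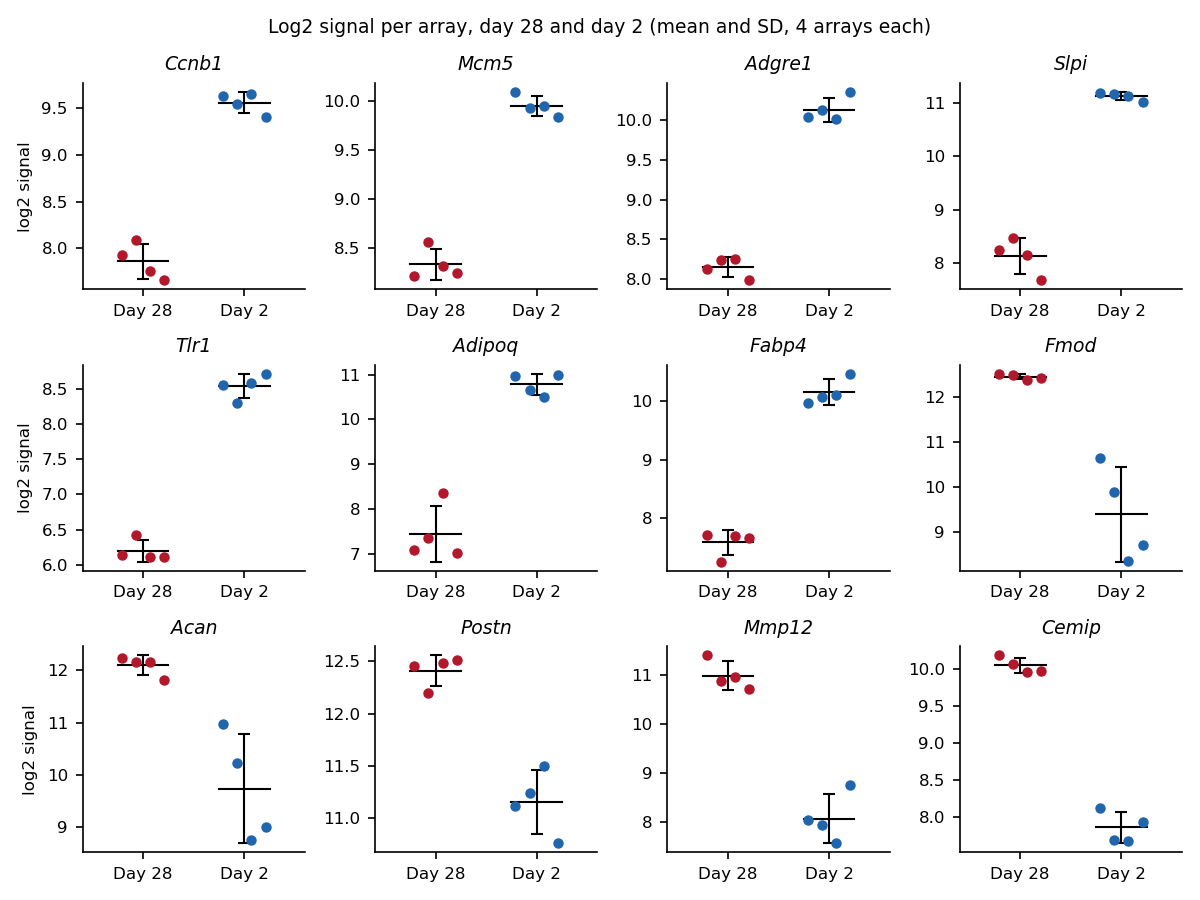
Log2 signal on each array (points, replicates 1 to 4 side by side) of 12 genes at day 28, left in each panel, and at day 2, right; bars are the mean and SD of 4 arrays. Ccnb1, Mcm5, Adgre1, Slpi, Tlr1, Adipoq and Fabp4 are lower at day 28 and Fmod, Acan, Postn, Mmp12 and Cemip are higher, and no day 28 point reaches a day 2 point in any of the 12 panels.

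Promoters of 3 of these genes are given, each with sequence elements known in other species to bind E2F factors or cell cycle repressor complexes. The part of these elements in the differences was not tested. Each runs from 250 bases before to 50 bases after the annotated start, 5′ to 3′ on the gene's strand, in RefSeq's GRCr8 build. Capitals mark TTTCGCGC and TTTGGCGC (the E2F element), TTTGAA (the cell cycle homology region) and CCAAT on either strand; on the opposite strand they appear as GCGCGAAA, GCGCCAAA, TTCAAA and ATTGG. Adjoining matches run into 1 block where the 2 E2F forms overlap.
Mcm5, chr19:13488563-13488862, plus strand: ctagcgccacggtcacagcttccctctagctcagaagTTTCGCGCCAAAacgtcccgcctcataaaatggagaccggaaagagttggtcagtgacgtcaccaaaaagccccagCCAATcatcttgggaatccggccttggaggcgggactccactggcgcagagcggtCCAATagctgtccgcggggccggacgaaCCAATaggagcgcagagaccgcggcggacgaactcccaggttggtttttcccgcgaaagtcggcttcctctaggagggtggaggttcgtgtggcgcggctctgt
Mcm6, chr13:42404303-42404602, minus strand: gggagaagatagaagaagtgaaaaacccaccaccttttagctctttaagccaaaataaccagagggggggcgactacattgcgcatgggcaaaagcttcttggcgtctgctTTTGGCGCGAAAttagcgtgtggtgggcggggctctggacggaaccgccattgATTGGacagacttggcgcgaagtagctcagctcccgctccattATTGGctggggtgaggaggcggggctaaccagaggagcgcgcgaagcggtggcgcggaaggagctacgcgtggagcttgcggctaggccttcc
Cdk1, chr20:19265043-19265342, plus strand: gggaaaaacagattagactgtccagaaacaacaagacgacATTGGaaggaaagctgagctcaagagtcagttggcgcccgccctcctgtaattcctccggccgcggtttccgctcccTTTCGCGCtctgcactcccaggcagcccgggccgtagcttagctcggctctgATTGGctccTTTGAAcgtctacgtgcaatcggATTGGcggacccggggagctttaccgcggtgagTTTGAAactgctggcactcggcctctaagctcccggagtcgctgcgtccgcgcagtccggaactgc
Mcm5 and Mcm6 each carry both E2F forms in 1 overlapping block, and Cdk1 carries 1 E2F form and 2 copies of TTTGAA. Of the 51 cell division genes 43 had a promoter entry. Either E2F form was found in 14 of them, 32.6%, whereas 1.17% of the 14564 measured genes with an entry held one. TTTGAA was found in 18 of 43 (41.9%), against 16.7% of all, and CCAAT in 29 of 43 (67.4%), against 38.9% of all. These are matches of letters in a fixed window and carry no measurement of binding.

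Macrophage genes were lower at day 28. Of 17 general macrophage and monocyte markers 16 were called lower and none higher, with a median difference of -1.25. Lyz2, lysozyme, was the exception at -0.13 ± 0.08, adjusted p = 0.274. Cd163, the haemoglobin scavenger receptor of tissue macrophages, read 6.82, 6.88, 6.81 and 6.55 at day 28, against 10.43, 9.92, 9.12 and 10.41 at day 2, a 9.21-fold fall (-3.20 ± 0.28, adjusted p = 1.24e-06). Adgre1, an adhesion receptor used to mark macrophages, read 8.13, 8.24, 8.25 and 7.98 at day 28, against 10.04, 10.13, 10.02 and 10.35 at day 2 (-1.98 ± 0.18, adjusted p = 1.54e-06). Aif1, a calcium-binding protein of activated macrophages, read 8.68, 8.60, 8.56 and 8.45 at day 28, against 10.59, 10.31, 10.52 and 10.47 at day 2 (-1.90 ± 0.11, adjusted p = 5.93e-08). All 17 genes, Lyz2 included, had non-overlapping groups. Over the whole list of 28 macrophage markers 21 were lower, and 19 with the marrow covariate.

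Other members of the macrophage list fell by varying amounts. Ccr2, the receptor that draws monocytes out of the blood, fell by 1.53, Ly6c, a surface marker of recruited monocytes, by 1.62, Cx3cr1, the fractalkine receptor, by 1.25 and Mrc1, the mannose receptor, by 1.60 on the log2 scale. Cd68, a lysosomal protein of phagocytes, had a far smaller difference of -0.42 ± 0.13, adjusted p = 0.0274. Against the intact arrays Cd68 stood at 1.23 (day 2), 0.90 (day 14) and 0.81 (day 28).

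Markers of lining and lipid-associated macrophages did not move as one. Of 11 measured members 5 were called lower, 3 higher, and the median was -0.03. Arg1, arginase 1, was lower (-1.54 ± 0.20, adjusted p = 4.96e-05). Mmp12, macrophage elastase, was higher and read 11.40, 10.88, 10.96 and 10.71 at day 28, against 8.04, 7.94, 7.58 and 8.75 at day 2, a 7.5-fold rise (2.91 ± 0.26, adjusted p = 1.51e-06). The other 2 that were called higher were Cd9, a tetraspanin found on many cell types (1.17 ± 0.08, adjusted p = 1.82e-07), and Vsig4, a complement receptor of resident macrophages (0.72 ± 0.24, adjusted p = 0.0398). The differences of Mmp12 from the intact arrays were 0.69 (day 2), 3.50 (day 14) and 3.59 (day 28), so that most of its rise had taken place by day 14. Cd9 and Vsig4 were chosen after their values were seen. Vsig4 had overlapping groups and lost its call in most runs with single arrays left out.

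Antigen presentation genes fell with the macrophage markers. Of 17 dendritic cell and MHC class II genes 12 were lower and none higher (median -0.94). Clec10a, a lectin of conventional dendritic cells and macrophages, read 6.83, 6.18, 6.98 and 6.72 at day 28, against 9.62, 9.37, 8.85 and 9.35 at day 2 (-2.62 ± 0.18, adjusted p = 1.49e-07). Flt3, the growth factor receptor that dendritic cells need, read 6.97, 7.18, 6.99 and 7.07 at day 28, against 8.73, 8.78, 9.03 and 8.72 at day 2 (-1.76 ± 0.12, adjusted p = 1.04e-07). Ciita, the master activator of MHC class II genes, read 7.01, 6.78, 6.98 and 6.92 at day 28, against 8.47, 8.37, 8.27 and 8.21 at day 2 (-1.41 ± 0.09, adjusted p = 1.04e-07). The class II chain genes RT1-Bb and RT1-Da fell by 1.20 and 1.07.

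Pattern recognition and interleukin-1 family genes came next. Of 15 Toll-like receptor genes and adaptors 6 were lower and 2 higher. Tlr1, which pairs with Tlr2 to sense bacterial lipoproteins, read 6.14, 6.42, 6.11 and 6.11 at day 28, against 8.56, 8.30, 8.58 and 8.71 at day 2, with a difference of -2.34 ± 0.12, adjusted p = 2.14e-08, and Tlr7, a sensor of single-stranded RNA, read 9.00, 8.87, 8.69 and 8.57 at day 28, against 10.62, 10.60, 10.62 and 10.76 at day 2 (-1.87 ± 0.12, adjusted p = 9.3e-08). Tlr2, Tlr6 and the adaptor Myd88 fell by 1.07, 1.05 and 0.55. The 2 that rose were Lbp, the lipopolysaccharide-binding protein, by 1.15 and the kinase Irak2 by 0.48.

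Of 30 inflammatory cytokine genes and their receptors 10 were lower and 2 higher (median -0.24). Il1b, interleukin-1 beta, read 5.78, 5.93, 5.91 and 5.68 at day 28, against 7.00, 7.03, 7.19 and 7.28 at day 2 (-1.30 ± 0.10, adjusted p = 3.88e-07). Il33, an alarmin of stromal and endothelial cells, and its receptor Il1rl1 were both lower, at -1.84 ± 0.18, adjusted p = 4.17e-06 and -1.89 ± 0.13, adjusted p = 1.42e-07. Their histories differed: Il33 stood at -0.02 (day 2), -0.74 (day 14) and -1.86 (day 28) relative to intact tissue, whereas Il1rl1 stood at 1.97 (day 2), 0.82 (day 14) and 0.08 (day 28). Il18 fell by 1.03 and Il6r by 1.04. Il6 read 8.32, 6.44, 7.39 and 6.99 at day 28, against 8.11, 8.51, 8.85 and 8.03 at day 2 and was not called (-1.09 ± 0.38, adjusted p = 0.0509), and day 28 replicate 1 lay within the day 2 range; with the marrow covariate Il6 gave -1.76 (adjusted p = 0.00915) and was called. Tnf was not called either (-0.34 ± 0.14, adjusted p = 0.0932). Tnfsf11, which encodes the osteoclast growth factor RANKL, and Il11 were the 2 that rose, by 1.45 ± 0.13, adjusted p = 1.89e-06 and 0.46 ± 0.13, adjusted p = 0.0213.

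Among 41 chemokine ligands and receptors 13 were lower (31.7%, against 17.2% of all genes) and 6 higher (14.6%, against 14.5%). The higher ones were 2 with the marrow covariate. They were 3 without day 28 replicate 1, without day 28 replicate 3 or without day 2 replicate 2. Ccl6, a ligand of Ccr1 made by myeloid cells, read 6.70, 7.99, 7.17 and 6.49 at day 28, against 10.47, 10.23, 9.76 and 10.57 at day 2 (-3.17 ± 0.28, adjusted p = 1.27e-06). The monocyte attractants Ccl7 and Ccl12 fell by 1.57 and 1.78, and the neutrophil attractants Cxcl6 and Cxcl1 by 1.70 and 1.20. Ccl2, the best known monocyte attractant, fell by only 0.63 and stood at 1.62 (day 2), 1.38 (day 14) and 1.00 (day 28) relative to the intact arrays. Ackr3, a scavenging receptor for Cxcl12, read 11.03, 10.85, 11.12 and 11.21 at day 28, against 9.24, 9.26, 9.09 and 8.92 at day 2 and rose by 1.92 ± 0.10, adjusted p = 2.4e-08. Cxcl14, a chemokine of stromal tissue, rose by 1.22 ± 0.16, adjusted p = 4.6e-05.

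Interferon-stimulated genes were called in the lower direction only, and complement genes in both. Of 21 interferon-stimulated genes 9 were lower and none higher (median -0.59), and 4 with the marrow covariate. Relative to intact tissue the list median was -0.30 (day 2), -0.42 (day 14) and -0.77 (day 28), so it was below intact tissue at day 2 already. Rsad2, which encodes the antiviral protein viperin, read 5.84, 7.98, 6.56 and 5.73 at day 28, against 9.31, 8.65, 8.11 and 8.45 at day 2 (-2.10 ± 0.58, adjusted p = 0.0152), and the order of its day 28 arrays was that of the marrow signal; with the marrow covariate its difference was -0.43 and no longer called (adjusted p = 0.211). Mx1, an antiviral GTPase, fell by 1.66. Of 20 complement genes 8 were lower (40.0%, against 17.2% of all genes) and 6 higher (30.0%, against 14.5%). The lower ones were 5 with the marrow covariate, without day 28 replicate 4 or without day 2 replicate 1. Cfp, properdin, and C3ar1, the receptor for the C3a fragment, fell by 1.48 and 1.36, and C3 itself by 0.95; with the marrow covariate C3 gave -0.24 (adjusted p = 0.498) and was not called. C1s, a protease of the first component, C6, Serping1, the inhibitor of the first component, and Cd55, a shield on host cells, rose by 1.32, 0.97, 0.95 and 1.23.

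Slpi, a leukocyte protease inhibitor secreted by epithelia and phagocytes, had a large fall and little spread at day 2. It read 8.24, 8.46, 8.14 and 7.68 at day 28, against 11.18, 11.17, 11.13 and 11.02 at day 2 (-3.00 ± 0.18, adjusted p = 5.52e-08). Cd300c2, a receptor of the CD300 family on myeloid cells, read 3.46, 3.47, 3.65 and 3.57 at day 28, against 5.76, 5.86, 5.87 and 6.00 at day 2 (-2.33 ± 0.15, adjusted p = 1.04e-07). All of its values lay below the array medians. Cd36l1, named in the annotation after the scavenger receptor Cd36, fell by 2.80, and Or10aa1, an olfactory receptor gene, by 2.48; the groups of both were separate. Serpina3n, an acute-phase inhibitor of proteases, fell by 1.17.

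Neutrophil and erythroid genes varied widely among the day 28 arrays. Of 20 neutrophil markers 6 were lower and 1 higher, and of 15 erythroid and marrow progenitor markers 8 were lower and none higher. S100a9, a calcium-binding alarmin stored in neutrophils, read 7.73, 10.75, 8.36 and 6.80 at day 28, against 10.60, 10.75, 10.61 and 10.96 at day 2 (-2.32 ± 0.73, adjusted p = 0.0331). Hemgn, a nuclear protein of blood progenitors, read 6.45, 9.67, 7.80 and 6.54 at day 28, against 10.74, 10.22, 9.46 and 9.65 at day 2 (-2.40 ± 0.76, adjusted p = 0.0327). In both genes the groups overlapped: day 28 replicate 2 reached the day 2 range while the other day 28 replicates lay far below it. All day 28 arrays lay below all day 2 arrays in 7 of 15 erythroid markers and 1 of 20 neutrophil markers. That was so in 20.3% of all genes. Mpo, myeloperoxidase, read 7.88, 10.68, 9.29 and 7.19 at day 28, against 10.88, 10.58, 10.39 and 10.35 at day 2 and was not called (-1.79 ± 0.63, adjusted p = 0.0524). With the marrow covariate, which is built from these genes, S100a9 gave -0.23 (adjusted p = 0.716), Hemgn -0.14 (adjusted p = 0.662) and Csf3r -1.23 (adjusted p = 0.000403), 1 neutrophil marker was lower and no erythroid marker was. Leaving out any single array gave between 1 and 14 lower neutrophil markers, the 14 without day 28 replicate 2, and between 3 and 11 lower erythroid markers. Csf3r, the receptor for the neutrophil growth factor G-CSF, had separate groups (-2.10 ± 0.32, adjusted p = 0.000182). The marker that rose was Mmp9, gelatinase B, which osteoclasts also make (1.02 ± 0.21, adjusted p = 0.00255).

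**Figure D3:**
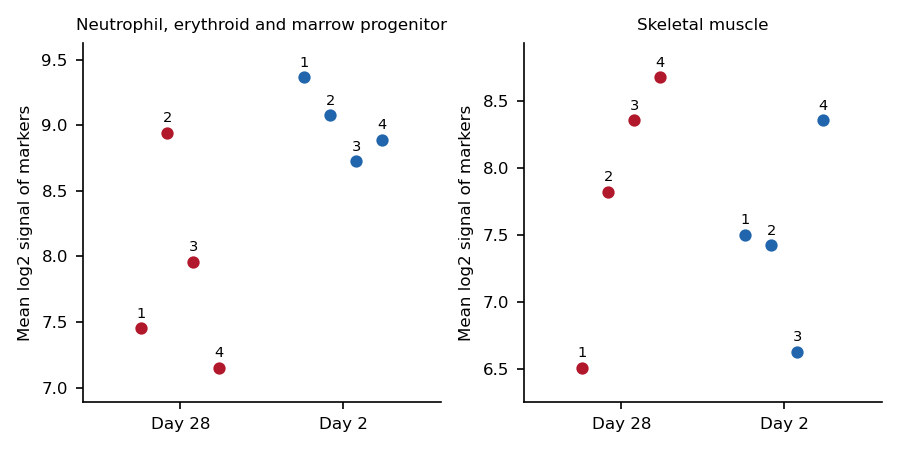
Mean log2 signal over the neutrophil, erythroid and marrow progenitor genes (left panel) and over the skeletal muscle genes (right panel) on each array, day 28 left of day 2, with replicate numbers beside the points. Day 28 replicate 2 lies among the day 2 arrays in marrow signal and the other day 28 replicates below them, whereas in muscle signal all day 2 arrays lie inside the day 28 range.

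Lymphocyte markers were mostly not called. Of 31 T and NK cell markers 8 were lower (25.8%, against 17.2% of all genes) and none higher. The mean over the list was 6.10 at day 28 and 6.51 at day 2, both below the lowest array median. In such dim members a missing call does not show that nothing changed. Cd8a and Cd8b, the chains of the cytotoxic T cell co-receptor, fell by 1.97 and 1.67, and Klrk1, an activating receptor of NK cells, read 6.96, 7.11, 6.77 and 6.81 at day 28, against 8.77, 9.04, 8.77 and 9.04 at day 2 (-2.0 ± 0.10, adjusted p = 1.68e-08). Ly49si1, a receptor of the Ly49 family of NK cells, read 5.47, 5.67, 4.39 and 4.77 at day 28, against 7.87, 7.91, 8.55 and 8.21 at day 2 (-3.06 ± 0.41, adjusted p = 5.72e-05). Cd2, an adhesion molecule of T and NK cells, fell by 1.54. Cd3e, part of the T cell receptor complex itself, showed no call (0.20 ± 0.16, adjusted p = 0.393), and its reading was 5.14 to 6.12 at day 28 and 5.27 to 5.56 at day 2. NK cells and some macrophages also carry CD8 in rats, and the cell of origin was not measured. Of 15 B and plasma cell markers Cd22 was lower (-1.33) and Ebf1 higher (0.52), and 6 were lower without day 28 replicate 2. Of 12 mast cell markers 2 were higher, or 5 with the marrow covariate: the tryptases Tpsb2 and Tpsab1 rose by 1.17 and 0.88. Kit, a growth factor receptor that progenitors also carry, was lower (-0.27).

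Genes of fat cells and their lipid droplets were lower at day 28. Of 29 measured members 20 were lower and 1 higher, with a median of -1.17. Relative to intact tissue the list median was -0.64 (day 2), -1.26 (day 14) and -2.11 (day 28). The mean over the list ran between 7.35 and 7.68 at day 28 and between 8.59 and 8.90 at day 2.

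Hormone and storage genes led this list. Adipoq, adiponectin, the main hormone of fat cells, read 7.07, 7.34, 8.34 and 7.01 at day 28, against 10.97, 10.66, 10.51 and 10.99 at day 2 and fell 10.1-fold, the largest fall of all genes with 1 symbol (-3.34 ± 0.28, adjusted p = 8.59e-07). Fabp4, the fatty acid carrier of adipocytes, read 7.72, 7.26, 7.71 and 7.67 at day 28, against 9.96, 10.07, 10.11 and 10.46 at day 2 (-2.56 ± 0.17, adjusted p = 1.06e-07). Plin1, the coat protein of large lipid droplets, read 7.13, 7.24, 7.53 and 7.26 at day 28, against 9.64, 9.61, 9.41 and 9.72 at day 2 (-2.30 ± 0.21, adjusted p = 1.44e-06). Cidec, which fuses droplets, and Aqp7, the glycerol channel, fell by 2.79 and 2.40. The order of the 4 groups was the same for all 5 genes, with intact tissue highest, then day 2, day 14 and day 28.

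Enzymes and regulators of lipid metabolism fell alongside. Gpd1, which makes the glycerol backbone, Pck1, which feeds it, and Cfd, adipsin, fell by 2.69, 2.08 and 2.18. Pparg, the nuclear receptor that drives adipocyte differentiation, read 7.17, 7.22, 7.43 and 7.17 at day 28, against 8.69, 8.58, 8.28 and 8.87 at day 2 (-1.36 ± 0.22, adjusted p = 0.000313). Angptl4, a lipase inhibitor induced by fasting and by hypoxia, read 7.84, 8.25, 8.41 and 7.97 at day 28, against 9.87, 10.35, 10.60 and 10.04 at day 2 (-2.10 ± 0.21, adjusted p = 3.57e-06); unlike the adipocyte genes it was above intact tissue at day 2, with differences of 1.99 (day 2), 0.62 (day 14) and -0.11 (day 28). The member that rose was Plin5, a droplet protein of oxidative tissue (0.41 ± 0.11, adjusted p = 0.0166).

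Of 17 genes of fatty acid, triacylglycerol and sterol synthesis 7 were lower and 1 higher. Thrsp, a regulator of lipogenesis, read 6.31, 6.60, 6.96 and 6.44 at day 28, against 10.06, 9.48, 8.79 and 9.18 at day 2 (-2.80 ± 0.26, adjusted p = 1.89e-06). Scd, stearoyl-CoA desaturase, fell by 1.74, Dgat2, which completes triacylglycerol, by 1.59 and Acsl1, which activates fatty acids, by 1.83. Me1, malic enzyme, rose by 0.66.

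Cartilage matrix genes were higher at day 28. Of 21 matrix protein genes 11 were higher and none lower, with a median difference of 1.17, and the list stood at -1.56 relative to intact tissue at day 2, -1.43 at day 14 and -0.53 at day 28. Acan, aggrecan, read 12.24, 12.16, 12.16 and 11.82 at day 28, against 10.97, 10.24, 8.77 and 9.00 at day 2, a 5.11-fold rise (2.35 ± 0.36, adjusted p = 0.000209). Col2a1, type II collagen, read 11.14, 10.44, 11.46 and 9.78 at day 28, against 10.75, 9.82, 7.25 and 8.32 at day 2 and was not called (1.67 ± 0.66, adjusted p = 0.0852), and day 2 replicates 1 and 2 reached the day 28 range. Hapln1, the link protein that ties aggrecan to hyaluronan, rose by 1.69 ± 0.51, adjusted p = 0.025 with overlapping groups. Day 2 replicate 1 was the highest and replicate 3 the lowest of the day 2 arrays in all 3 genes.

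Other chondrocyte products rose too. Scrg1, a secreted protein of chondrocytes, read 9.22, 9.62, 9.12 and 8.70 at day 28, against 7.02, 6.13, 5.54 and 6.34 at day 2 (2.91 ± 0.36, adjusted p = 3.2e-05), and it remained below the intact mean of 10.61. Clec3a, a lectin secreted in cartilage, read 10.71, 10.49, 10.79 and 9.48 at day 28, against 9.45, 8.47, 6.55 and 8.17 at day 2 (2.21 ± 0.59, adjusted p = 0.0127). Cilp2, a relative of the intermediate layer protein, rose by 2.19 ± 0.19, adjusted p = 1.31e-06, Col11a1 of the heterotypic fibril by 1.56 ± 0.26, adjusted p = 0.00047 and Chad, chondroadherin, by 1.35 ± 0.41, adjusted p = 0.0253 with overlapping groups. For Clec3a the differences from the intact arrays were -4.29 (day 2), -4.65 (day 14) and -2.08 (day 28), so that the day 28 level lay between those of day 2 and intact tissue.

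Of 13 chondrocyte transcription factors and hypertrophy genes 6 were higher and none lower (median 0.43). Sox9, the master regulator of chondrocytes, read 6.94, 6.75, 6.84 and 6.84 at day 28, against 6.45, 6.38, 6.14 and 6.21 at day 2 (0.55 ± 0.11, adjusted p = 0.00156), and its partner Sox5 read 8.82, 8.50, 8.55 and 8.48 at day 28, against 6.99, 7.22, 7.36 and 6.80 at day 2 (1.49 ± 0.19, adjusted p = 3.9e-05). Fgfr3, which restrains chondrocyte growth, rose by 0.43.

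Small leucine-rich proteoglycans bind collagen fibrils and set their thickness. Of 11 measured members 9 were higher and none lower (median 1.16). Fmod, fibromodulin, read 12.52, 12.50, 12.39 and 12.43 at day 28, against 10.64, 9.89, 8.36 and 8.72 at day 2, an 8.33-fold rise (3.06 ± 0.35, adjusted p = 1.24e-05), and its differences from intact tissue were -3.01 (day 2), -0.37 (day 14) and 0.05 (day 28). Prelp, which links matrix to basement membrane, read 12.97, 12.95, 12.91 and 13.01 at day 28, against 12.05, 11.89, 11.89 and 11.38 at day 2 (1.16 ± 0.11, adjusted p = 2.84e-06). Aspn, asporin, and Omd, osteomodulin, rose by 1.17 ± 0.21, adjusted p = 0.000645 and 1.37 ± 0.28, adjusted p = 0.00234. Bgn, biglycan, rose by 0.42. Day 28 arrays agreed closely in Fmod, between 12.39 and 12.52, whereas day 2 arrays spread from 8.36 to 10.64.

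Collagens and the enzymes that process them were the most uniform of the rising lists. Of 35 measured members 33 were higher and none lower (median 1.00), and 29 were higher with the marrow covariate. Col6a3, a chain of the beaded filament collagen around cells, read 11.94, 11.89, 11.92 and 11.88 at day 28, against 10.42, 10.43, 10.45 and 10.33 at day 2 (1.50 ± 0.08, adjusted p = 2.14e-08). Col3a1, the collagen of young scar and vessel walls, read 12.90, 12.77, 12.79 and 12.88 at day 28, against 11.90, 12.04, 12.26 and 11.65 at day 2 (0.87 ± 0.10, adjusted p = 1.77e-05). Col1a1, the main collagen of bone, meniscus and capsule, read 13.24, 13.31, 13.26 and 13.26 at day 28, against 12.76, 12.85, 12.75 and 12.86 at day 2, a smaller difference of 0.46 ± 0.06, adjusted p = 7.05e-05. Col5a3 and Col14a1, which regulate fibril assembly, rose by 1.61 ± 0.14, adjusted p = 9.17e-07 and 1.40 ± 0.15, adjusted p = 9.98e-06.

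Hydroxylation and propeptide cleavage come before fibril assembly. P4ha2 and P4ha3, prolyl 4-hydroxylase subunits, rose by 1.61 ± 0.11, adjusted p = 1.75e-07 and 1.28 ± 0.24, adjusted p = 0.000994, and P3h2, a prolyl 3-hydroxylase, by 1.57 ± 0.15, adjusted p = 2.06e-06. Adamts2 and Adamts14, which cut the amino-terminal propeptide of fibrillar collagens, rose by 1.25 ± 0.09, adjusted p = 1.47e-07 and 1.38 ± 0.12, adjusted p = 1.6e-06. Their groups did not overlap.

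Matrix genes of activated fibroblasts rose with the collagens. Of 23 members 19 were higher and none lower (median 0.86). Postn, periostin, a matrix protein of healing tissue, read 12.46, 12.19, 12.48 and 12.51 at day 28, against 11.11, 11.24, 11.50 and 10.76 at day 2 (1.26 ± 0.14, adjusted p = 1.05e-05). Thbs4, thrombospondin 4, read 12.36, 12.29, 12.30 and 12.50 at day 28, against 10.66, 10.26, 10.30 and 9.36 at day 2 (2.22 ± 0.21, adjusted p = 2.64e-06). Cthrc1, a collagen-associated protein of injured tissue, read 10.05, 10.07, 10.21 and 10.29 at day 28, against 8.61, 8.73, 8.91 and 8.46 at day 2 (1.48 ± 0.13, adjusted p = 1.15e-06). Fap, fibroblast activation protein, and Lrrc15, a membrane protein of matrix-making fibroblasts, rose by 1.14 ± 0.16, adjusted p = 8.38e-05 and 1.21 ± 0.21, adjusted p = 0.000573. Lrrc15 and Tnn, tenascin N, were already above intact tissue at day 2: Lrrc15 stood at 1.80 (day 2), 3.02 (day 14) and 3.02 (day 28) and Tnn at 2.01 (day 2), 3.22 (day 14) and 3.39 (day 28). Ccn3, a matricellular growth regulator, rose by 2.08 ± 0.14, adjusted p = 1.04e-07 and stood at -2.21 (day 2), -0.30 (day 14) and -0.13 (day 28).

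Elastic fibre genes rose in part. Of 13 members 7 were higher and 1, Fbln1, lower (-0.68 ± 0.15, adjusted p = 0.00312). Ltbp4, which stores latent TGF-beta on elastic fibres, read 10.74, 10.36, 10.53 and 10.68 at day 28, against 9.04, 9.11, 9.01 and 9.17 at day 2 (1.50 ± 0.10, adjusted p = 1.22e-07). Mfap4 and Mfap5, microfibril-associated proteins, rose by 1.26 ± 0.24, adjusted p = 0.0012 and 1.25 ± 0.18, adjusted p = 0.000111.

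Of 14 genes of joint lubrication and the synovial lining 8 were higher, or 5 with the marrow covariate, and none lower (median 0.39). Cemip, which starts the breakdown of hyaluronan, read 10.18, 10.07, 9.96 and 9.98 at day 28, against 8.13, 7.70, 7.69 and 7.94 at day 2 (2.18 ± 0.14, adjusted p = 7.39e-08). Has1, a hyaluronan synthase, and Hyal1, a hyaluronidase, rose by 1.29 ± 0.20, adjusted p = 0.000218 and 1.05 ± 0.14, adjusted p = 5.67e-05, and Creb5, a transcription factor of the superficial zone, by 1.31 ± 0.11, adjusted p = 7.42e-07. Prg4, lubricin, read 13.06, 12.91, 12.88 and 12.95 at day 28, against 12.47, 12.75, 12.87 and 12.32 at day 2 (0.35 ± 0.11, adjusted p = 0.0314).

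**Figure D4:**
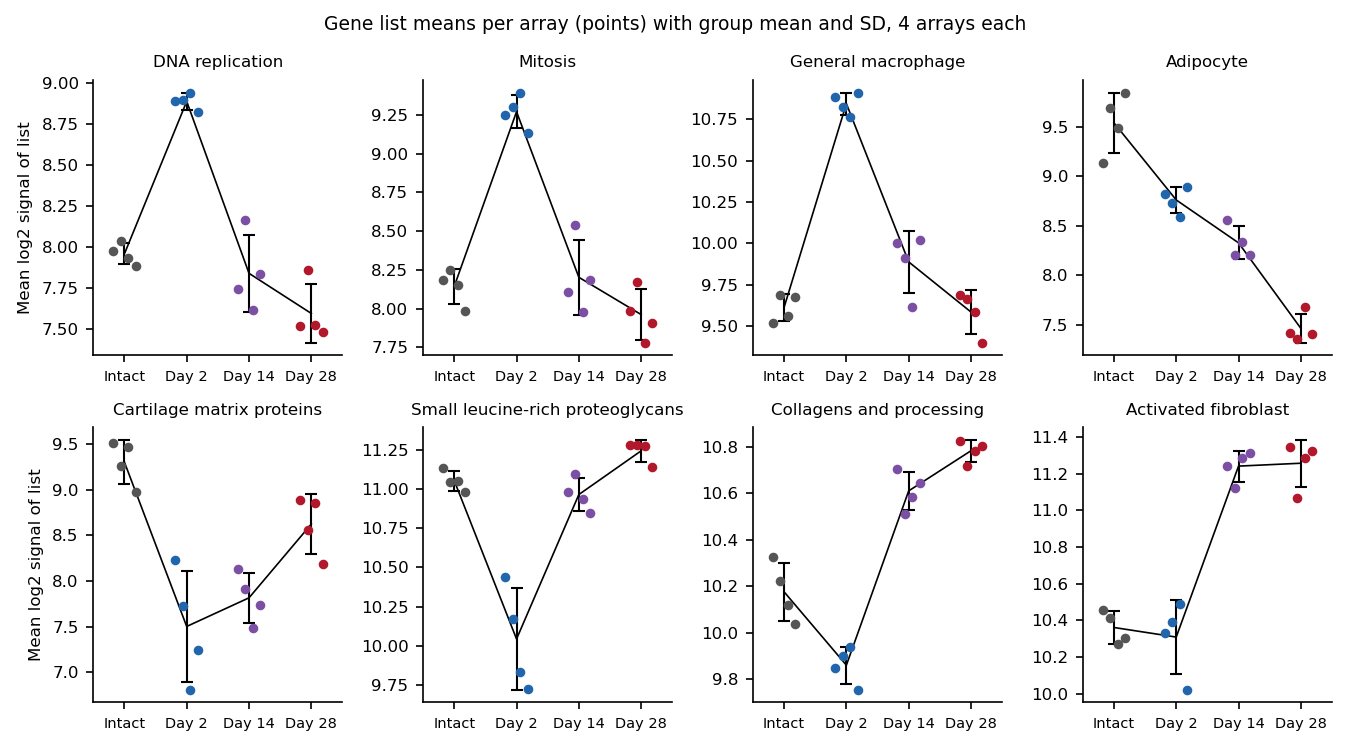
Mean log2 signal over the measured members of 8 gene lists on each array (points) and the group mean with SD (line and bars) for intact rats and at days 2, 14 and 28 after MIA, 4 arrays each. The cell division and macrophage lists peak at day 2, the adipocyte list is lower at each later group, and the collagen and activated fibroblast lists are highest at days 14 and 28.

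Matrix metalloproteinases, the enzymes that cut collagen and other matrix, were called in 1 direction only. Of 17 members 10 were higher and none lower (median 0.49). Mmp14, a membrane-bound collagenase that activates Mmp2, read 11.75, 11.52, 11.74 and 11.63 at day 28, against 10.58, 10.53, 10.50 and 10.18 at day 2 (1.21 ± 0.10, adjusted p = 9.63e-07), and Mmp2, gelatinase A, rose by 0.86 ± 0.10, adjusted p = 2.45e-05. Mmp13, the main collagenase of cartilage, read 12.36, 12.60, 12.40 and 12.10 at day 28, against 11.47, 11.36, 11.29 and 11.64 at day 2 (0.92 ± 0.23, adjusted p = 0.00889). Mmp16 and Mmp11 rose by 1.28 ± 0.15, adjusted p = 1.77e-05 and 1.01 ± 0.12, adjusted p = 2.37e-05. Mmp3, stromelysin, was not called (0.31 ± 0.25, adjusted p = 0.425) and stood above intact tissue at all 3 times, at 1.51 (day 2), 2.29 (day 14) and 1.82 (day 28). Mmp8, the neutrophil collagenase, read 7.54, 10.55, 8.59 and 6.38 at day 28, against 10.61, 10.30, 9.86 and 10.44 at day 2 (-2.04 ± 0.76, adjusted p = 0.0704) with the spread of the marrow genes.

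Of 14 ADAMTS proteases 6 were higher and 1, Adamts9, lower (-0.42). The aggrecanases Adamts4 and Adamts5 showed next to no difference, at -0.03 ± 0.16, adjusted p = 0.92 and 0.03 ± 0.19, adjusted p = 0.923, and both groups overlapped. Adamts4 was above intact tissue throughout, at 1.80 (day 2), 1.97 (day 14) and 1.77 (day 28). Among 15 protease inhibitors 4 were higher and 2, Slpi and Serpina3n, lower. The 4 were Timp3, which blocks metalloproteinases and aggrecanases (1.12 ± 0.11, adjusted p = 2.63e-06), Reck, a membrane-anchored inhibitor (0.78 ± 0.08, adjusted p = 6e-06), Serpine2 (0.73 ± 0.17, adjusted p = 0.00483) and Timp2 (0.70 ± 0.07, adjusted p = 4e-06). Timp1 was not called (0.24 ± 0.11, adjusted p = 0.154).

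WNT genes control joint and bone patterning. Of 46 measured members 21 were higher and 1, the receptor Fzd4, lower (-0.51), with a median of 0.34. Dkk3, a secreted member of the Dickkopf family, read 10.89, 10.98, 10.89 and 10.84 at day 28, against 8.89, 8.42, 8.15 and 8.07 at day 2 (2.52 ± 0.13, adjusted p = 2.14e-08). The receptor Fzd8 read 9.42, 9.34, 9.31 and 9.44 at day 28, against 8.08, 8.10, 8.01 and 8.18 at day 2 (1.29 ± 0.10, adjusted p = 2.8e-07), and Fzd6, Fzd9 and Fzd2 rose by 0.89, 0.86 and 0.82. The ligands Wnt9a and Wnt16, both expressed in joint tissue, rose by 1.03 ± 0.13, adjusted p = 3.8e-05 and 0.91 ± 0.10, adjusted p = 7.59e-06, and Sfrp4, an antagonist, by 0.92 ± 0.17, adjusted p = 0.000939.

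Of 34 TGF-beta and BMP family genes 16 were higher and 4 lower, and the lower ones were 2 with the marrow covariate and 2 without day 28 replicates 2 or 3 or day 2 replicate 4 in turn. The ligands Tgfb2 and Tgfb3 rose by 1.44 ± 0.12, adjusted p = 6.56e-07 and 1.37 ± 0.10, adjusted p = 2.32e-07, and Tgfb3 read 10.33, 10.10, 10.20 and 10.55 at day 28, against 9.00, 8.88, 9.01 and 8.82 at day 2. Inhba, which encodes the activin A subunit, and Bmp5 rose by 0.79 and 0.80. Of the antagonists Fstl3 rose by 1.09 while Grem1 and Chrdl1 fell by 0.92 and 0.84. Of 12 insulin-like growth factor genes 9 were higher and none lower. Igfbp6, a binding protein that prefers Igf2, read 11.48, 11.43, 11.64 and 11.91 at day 28, against 9.91, 9.85, 9.59 and 9.40 at day 2 (1.93 ± 0.13, adjusted p = 1.11e-07), and Igf2 itself rose by 0.81 ± 0.18, adjusted p = 0.00377. Of 16 FGF family genes 6 were higher and 2 lower: Fgf16 rose by 1.19 ± 0.22, adjusted p = 0.00119 and Fgf7, keratinocyte growth factor, fell by 1.07.

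Bone-forming genes were higher in part. Of 19 osteoblast and osteocyte genes 7 were higher and 1, Fgf23, lower (-0.55), and with the marrow covariate 12 were higher. The higher ones were 4 without day 28 replicate 2, without day 28 replicate 3 or without day 2 replicate 3. Fgf23 lost its call in most runs with single arrays left out. Enpp1, which makes pyrophosphate, and Alpl, the phosphatase that destroys it, rose by 1.33 ± 0.12, adjusted p = 1.92e-06 and 1.06 ± 0.30, adjusted p = 0.0193. Ibsp, bone sialoprotein, rose by 0.93 ± 0.28, adjusted p = 0.0235 and the transcription factor Dlx5 by 0.95 ± 0.17, adjusted p = 0.000831, whereas Bglap, osteocalcin, was not called (0.22 ± 0.29, adjusted p = 0.627). Tnfrsf11b, osteoprotegerin, the decoy receptor for the RANKL protein encoded by Tnfsf11, read 9.06, 9.09, 8.97 and 9.04 at day 28, against 7.60, 7.71, 7.88 and 7.93 at day 2 (1.26 ± 0.09, adjusted p = 2.25e-07), so ligand and decoy both rose. Of 11 osteoclast genes 4 were higher and 2 lower. Atp6v0d2, a subunit of the acid pump, and Ctsk, the collagen-cutting cathepsin, rose by 1.39 ± 0.29, adjusted p = 0.00246 and 0.79 ± 0.15, adjusted p = 0.00107. Car2, carbonic anhydrase 2, which red cells also hold, and Tnfrsf11a, the RANKL receptor, fell by 1.49 and 0.92. With the marrow covariate Car2 gave -0.47 (adjusted p = 0.0476), Ibsp 1.43 (adjusted p = 0.00477) and Bglap 0.85 (adjusted p = 0.0439), which was then called.

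Hypoxia-responsive genes were mostly higher. Of 17 members 12 were higher and 1, Angptl4, lower (median 0.57). Egln3, an oxygen-sensing prolyl hydroxylase, read 10.03, 9.54, 9.40 and 9.77 at day 28, against 7.44, 7.26, 7.11 and 8.19 at day 2 (2.19 ± 0.29, adjusted p = 4.8e-05). Car9, an acid-regulating carbonic anhydrase, read 9.23, 8.77, 8.70 and 9.11 at day 28, against 7.32, 6.98, 7.00 and 7.08 at day 2 (1.86 ± 0.18, adjusted p = 2.64e-06). Vegfa, the main angiogenic factor, read 10.19, 10.10, 10.07 and 10.10 at day 28, against 9.05, 9.04, 8.89 and 9.19 at day 2 (1.08 ± 0.09, adjusted p = 1.13e-06). Relative to intact tissue Car9 stood at -0.76 (day 2), -0.29 (day 14) and 1.10 (day 28).

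Of 19 glycolysis genes 6 were higher (31.6%, against 14.5% of all genes) and 4 lower (21.1%, against 17.2%). The lower ones were 2 with the marrow covariate. Eno2, an enolase, read 10.42, 10.11, 10.10 and 10.01 at day 28, against 8.21, 8.19, 8.14 and 8.44 at day 2 (1.91 ± 0.16, adjusted p = 5.73e-07). The lactate exporter Slc16a3 and the glucose transporter Slc2a1 rose by 1.53 ± 0.16, adjusted p = 5.01e-06 and 1.26 ± 0.14, adjusted p = 9.83e-06, and Aldoc, an aldolase, by 1.24 ± 0.13, adjusted p = 5.53e-06. Hk3, a hexokinase of white blood cells, and the transporter Slc16a1 fell by 0.84 and 0.71. Of 24 respiratory chain genes 9 were lower and none higher (median -0.29), 18 with the muscle covariate and 4 with the marrow covariate, and between 5 and 7 when any single array was left out. Cyc1, cytochrome c1, had the largest fall of the list (-0.66 ± 0.12, adjusted p = 0.00079).

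Stress genes are mixed lists. Of 19 oxidative and metal stress genes 9 were lower and 2 higher: Hmox1, haem oxygenase 1, read 8.40, 8.50, 8.30 and 8.56 at day 28, against 9.43, 9.63, 9.46 and 10.24 at day 2 (-1.25 ± 0.18, adjusted p = 9.39e-05), Oplah, of the glutathione cycle, fell by 1.75, and Sod3, the extracellular superoxide dismutase, rose by 0.64. Of 20 unfolded protein response genes 6 were lower, or 3 with the marrow covariate and 3 to 6 when any single array was left out, and 3 higher; the 3 were the transcription factors Atf3 (1.61 ± 0.15, adjusted p = 1.98e-06), Atf5 (1.18 ± 0.08, adjusted p = 1.31e-07) and Atf4 (0.39 ± 0.07, adjusted p = 0.00139). Of 22 lysosomal genes 7 were lower (31.8%, against 17.2% of all genes) and 4 higher (18.2%, against 14.5%). Among the lower ones Ctsc, a protease that activates granule enzymes, gave -1.01 ± 0.10, adjusted p = 5.04e-06.

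Of 17 endothelial markers 4 were lower (23.5%, against 17.2% of all genes) and none higher. Selp, P-selectin, which catches rolling leukocytes, read 8.42, 8.48, 8.18 and 8.43 at day 28, against 10.13, 9.99, 9.89 and 10.16 at day 2 (-1.66 ± 0.17, adjusted p = 3.83e-06), and Sele, E-selectin, fell by 0.92. Relative to intact tissue Selp stood at 1.66 (day 2), 0.76 (day 14) and -0.00 (day 28). Of 13 smooth muscle and pericyte markers 7 were higher and none lower, among them Cspg4 (1.03 ± 0.10, adjusted p = 2.76e-06) and Rgs5 (0.74 ± 0.07, adjusted p = 1.57e-06), and 3 were higher with the marrow covariate.

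Nerve-related genes were measured in the same tissue. Of 15 Schwann cell and neuronal markers 7 were higher, or 3 with the marrow covariate, and 2 lower. Egr2, a myelination factor also induced in fibroblasts, and S100b, which chondrocytes also express, rose by 0.96 ± 0.14, adjusted p = 0.000161 and 0.88 ± 0.25, adjusted p = 0.018, whereas Mbp, a myelin protein, fell by 0.70 at its brighter probe set and the dimmer one gave 0.29, which was not called. Of 28 axon guidance genes 14 were higher and 1, Nrp1, lower (-0.33). Sema3d, a secreted semaphorin, read 11.11, 11.14, 10.51 and 10.81 at day 28, against 8.58, 8.31, 8.14 and 8.20 at day 2 (2.58 ± 0.19, adjusted p = 2.74e-07), and Ntn4, a netrin of basement membranes, read 8.97, 8.53, 8.57 and 9.18 at day 28, against 6.83, 7.09, 7.40 and 6.98 at day 2 (1.74 ± 0.16, adjusted p = 1.6e-06). Sema5a and Sema3a rose by 1.25 ± 0.16, adjusted p = 3.07e-05 and 1.15 ± 0.21, adjusted p = 0.000781. These genes are also made by connective tissue cells.

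Of 20 neurotrophin and pain genes 1 was higher, or 4 with the muscle covariate, and 3 lower. The higher ones were 3 without day 28 replicate 4 and 2 without day 28 replicate 2, day 2 replicate 2 or day 2 replicate 4 in turn. Ntrk3, the receptor for neurotrophin 3, read 8.83, 8.28, 8.63 and 8.96 at day 28, against 6.92, 7.20, 7.17 and 7.25 at day 2 (1.54 ± 0.15, adjusted p = 3.34e-06). Penk, the enkephalin precursor, fell by 1.02, Cnr2, a cannabinoid receptor of immune cells, by 0.65 and P2rx4, an ATP-gated channel, by 0.60. Of 21 prostaglandin pathway genes 8 were lower, or 5 with the marrow covariate, and 3 higher. Ptgs2, cyclooxygenase 2, read 9.58, 9.16, 8.79 and 9.01 at day 28, against 8.02, 8.03, 8.02 and 8.21 at day 2 (1.06 ± 0.15, adjusted p = 0.000114), and Ptges, which makes prostaglandin E2 from its product, rose by 1.07 ± 0.12, adjusted p = 1.32e-05. The prostaglandin E2 receptor Ptger3 fell by 1.48 and stood at -1.57 (day 2), -2.19 (day 14) and -3.05 (day 28) relative to intact tissue, and Alox15, a lipoxygenase of the same substrate, fell by 1.77; with the marrow covariate Alox15 gave -0.45 (adjusted p = 0.248) and was not called. Ptger1 rose by 0.68, and by 0.44 with the marrow covariate. Of 10 renin-angiotensin genes 2 were higher and 1 lower, where 14.5% and 17.2% of all genes were. Whether this list differs from all genes was not tested. Mme (neprilysin) and Agtr1b rose by 0.93 and 0.45, and Agtr1a, an angiotensin II receptor, fell by 0.88. With the marrow covariate Agtr1b gave 0.35 (adjusted p = 0.133) and was not called.

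Clock genes were more often higher. Of 17 regulators 9 were higher (52.9%, against 14.5% of all genes) and 2 lower (11.8%, against 17.2%). Their median was 0.51, or 0.32 with the marrow covariate. Npas2, a partner of the clock factor Bmal1, read 11.35, 11.22, 11.07 and 11.39 at day 28, against 9.10, 8.96, 9.14 and 8.53 at day 2 (2.32 ± 0.15, adjusted p = 1.04e-07), and Rora, a nuclear receptor that drives Bmal1, read 10.19, 10.13, 10.02 and 10.19 at day 28, against 8.52, 8.59, 8.81 and 8.66 at day 2 (1.49 ± 0.09, adjusted p = 7.39e-08). Bmal1 rose by 1.13 ± 0.14, adjusted p = 2.9e-05, and Per3, of the opposing arm, fell by 0.57. The hour at which the tissue was taken is not given in the sources used here, so day after injection and hour of collection cannot be told apart. Of 26 integrin and laminin genes 11 were higher and 5 lower. Itga11, a collagen receptor of fibroblasts, read 10.33, 10.49, 10.62 and 10.70 at day 28, against 9.18, 8.91, 8.87 and 8.92 at day 2 (1.57 ± 0.10, adjusted p = 7.39e-08), whereas Itgb7, a leukocyte integrin, fell by 1.31. Of 11 genes in common use as internal standards 2, Rplp0 and Hprt1, were lower (-0.50 and -0.36) and none higher.

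Primary miRNA transcripts were also on the array. These probe sets read the precursor or its host transcript and not the mature miRNA. Of 363 miRNA genes 51 were higher, 14.0%, and 12 were lower, 3.31%, with a median of 0.15; the higher share is near the 14.5% of all genes and the lower share is below the 17.2%. The miRNA genes named here were chosen after their values were seen. Their mature sequences, from RefSeq's GRCr8 annotation, show which of them share a seed (capitals, bases 2 to 8), the stretch that pairs with target transcripts. Of the 363 genes 330 had a sequence entry.

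Of the genes that were lower, Mir223 is a neutrophil and monocyte gene, Mir142 is expressed across blood cells, and Mir144 and Mir451a are erythroid and lie 244 bases from end to end on chromosome 10.
rno-miR-223-3p: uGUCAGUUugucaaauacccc
rno-miR-142-3p: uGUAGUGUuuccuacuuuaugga
rno-miR-144-3p: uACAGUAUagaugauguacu
rno-miR-451-5p: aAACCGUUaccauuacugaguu
No 2 of these 4 share a seed. Mir223 read 5.75, 7.99, 6.67 and 6.07 at day 28, against 8.55, 8.63, 8.84 and 8.86 at day 2 (-2.10 ± 0.43, adjusted p = 0.00215), and its day 28 arrays had the spread of the marrow genes, with replicate 2 the highest; with the marrow covariate its difference was -0.92 (adjusted p = 0.0177). Mir142 read 5.01, 5.73, 5.33 and 5.37 at day 28, against 7.18, 7.03, 7.20 and 7.05 at day 2 (-1.76 ± 0.21, adjusted p = 2.4e-05), with separate groups and little of the array-to-array spread of the marrow genes. Mir144 fell by 1.64 and Mir451a by 0.66, and their signals were low.

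Of the genes that were higher, 7 are described here. Mir140 is carried in the Wwp2 gene and is a cartilage miRNA, and the other 6 belong to 2 clusters of the same make-up. Mir23a, Mir27a and Mir24-2 span 389 bases on chromosome 19, and Mir23b, Mir27b and Mir24-1 span 814 bases on chromosome 17.
rno-miR-140-5p: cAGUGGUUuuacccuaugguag
rno-miR-140-3p: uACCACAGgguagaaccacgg
rno-miR-23a-3p: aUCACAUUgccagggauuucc
rno-miR-23b-3p: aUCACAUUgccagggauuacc
rno-miR-27a-3p: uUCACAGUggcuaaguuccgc
rno-miR-27b-3p: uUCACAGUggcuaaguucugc
rno-miR-24-3p: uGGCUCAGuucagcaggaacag
The 2 miR-23 forms share the seed UCACAUU, the 2 miR-27 forms share UCACAGU, and both Mir24 genes give one mature sequence. Mir140 read 7.57, 8.12, 7.42 and 7.48 at day 28, against 6.35, 6.03, 6.17 and 5.98 at day 2 (1.51 ± 0.18, adjusted p = 1.58e-05). Its host Wwp2 rose by 0.66 ± 0.11, adjusted p = 0.000558. All 6 genes of the 2 clusters were called higher with separate groups; with the marrow covariate Mir24-2 gave 0.98 (adjusted p = 0.0853) and was not called. In the chromosome 19 cluster Mir27a rose by 1.48 ± 0.18, adjusted p = 2.52e-05, Mir24-2 by 1.36 ± 0.30, adjusted p = 0.00345 and Mir23a by 1.13 ± 0.16, adjusted p = 0.000104. In the chromosome 17 cluster Mir23b rose by 1.14 ± 0.11, adjusted p = 2.87e-06, Mir24-1 by 0.98 ± 0.13, adjusted p = 7.56e-05 and Mir27b by 0.90 ± 0.16, adjusted p = 0.000625. Mir23b read 8.90, 9.15, 9.05 and 9.26 at day 28, against 7.98, 7.82, 8.03 and 7.97 at day 2.

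**Figure D5:**
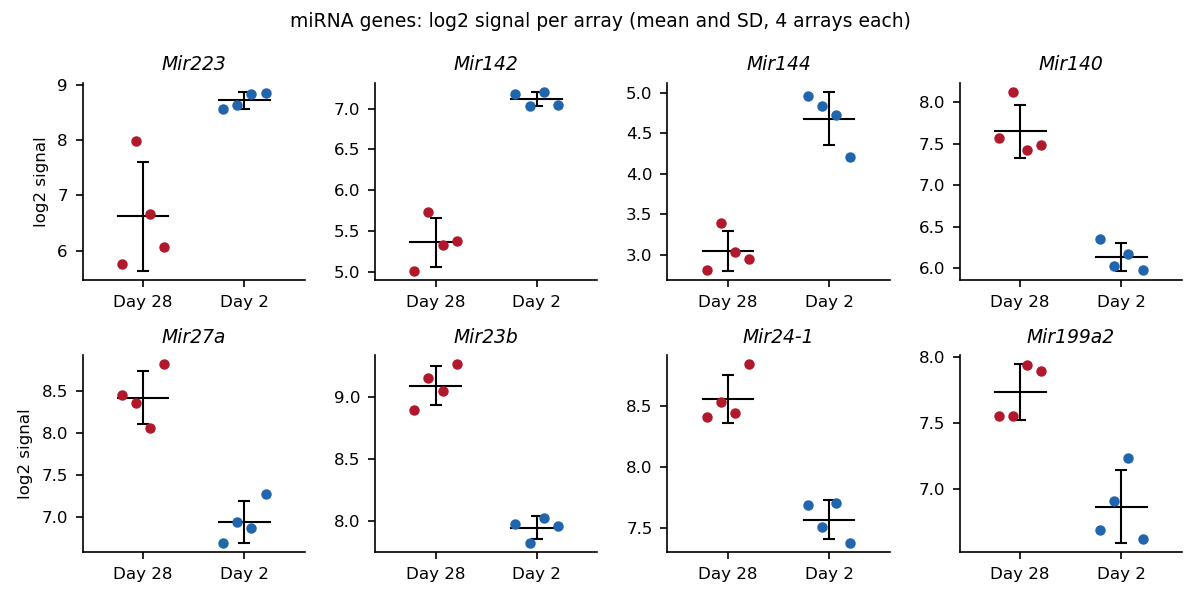
Log2 signal on each array of 8 miRNA genes at day 28, left in each panel, and at day 2, right; bars are the mean and SD of 4 arrays. Mir223, Mir142 and Mir144 are lower at day 28 and Mir140, Mir27a, Mir23b, Mir24-1 and Mir199a2 are higher, with no overlap in any panel.

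Set beside the intact arrays, the day 28 minus day 2 differences came from different positions. The comparisons that follow share their arrays with the one above and are given as values only. Slpi stood at 2.96 (day 2), 1.07 (day 14) and -0.04 (day 28) relative to intact tissue, Tlr1 at 2.35 (day 2), 0.71 (day 14) and 0.01 (day 28) and Clec4a3, a lectin receptor of myeloid cells, at 2.55 (day 2), 1.16 (day 14) and 0.64 (day 28). For these 3 the acute level was the one that stood apart. C1qtnf3 stood at -0.50 (day 2), 2.72 (day 14) and 3.04 (day 28), Gpr15lg at 0.35 (day 2), 2.71 (day 14) and 3.70 (day 28) and Tnmd at -1.15 (day 2), 1.48 (day 14) and 1.76 (day 28); for them the late level stood furthest from intact tissue, and day 14 lay nearer to day 28 than to day 2. Fmod at -3.01 (day 2), -0.37 (day 14) and 0.05 (day 28), Sema3d at -2.89 (day 2), -1.32 (day 14) and -0.30 (day 28) and Igfbp6 at -2.12 (day 2), -0.39 (day 14) and -0.20 (day 28) were below intact tissue at day 2 and near it at day 28. Adipoq at -0.87 (day 2), -1.86 (day 14) and -4.21 (day 28) and Thrsp at -1.67 (day 2), -2.19 (day 14) and -4.47 (day 28) moved further from intact tissue at each time. Cd163 at 0.74 (day 2), -1.47 (day 14) and -2.46 (day 28) was above intact tissue at day 2 and below it later.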

How the data were processed

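Total RNA from dissected rat knee tissue was hybridised to Rat Gene 2.0 ST arrays, 16 in all and 4 per group. The authors deposited background-subtracted, quantile-normalised log2 values per probe set; the submitters' processing notes name RMA in oligo 1.36.1, and the genome build is not given in the sources used here. Of 36685 probe sets 18511 carried exactly 1 gene symbol in the platform annotation, 575 several and 17599 none. No read depth applies to arrays; their number limits the precision.

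The deposited log2 values entered limma 3.58.1 in R 4.3.3 with 1 mean per group over all 16 arrays. The contrast day 28 minus day 2 was tested with eBayes, two-sided, and Benjamini-Hochberg adjustment ran over all probe sets, with calls under 0.05. The script was tested on simulated data. A gene's brightest probe set over all arrays represented it.

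Named genes were the 15 largest called differences per direction, over 2-fold and with non-overlapping groups; up to 8 members per list with the largest differences; and a list of key genes. Cd9, Vsig4, Lyz2, Il11, Fzd4, Nrp1, Plin5, Wwp2, the Nr4a genes and the miRNA genes were added after their values were seen. The 48 lists and their members were chosen with earlier results of these data known. Alternatives were other scalings, filters, variance models, covariates, arrays and tests. The main fit did not pair arrays by replicate number.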

Additional observations from a re-analysis of the deposited data

Results flagged for a closer look

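In 38 of 634 groups of 4 arrays examined, over the genes and list means named above, the highest or lowest array stood apart from the other 3 by a larger share of the group's range than Dixon's critical value allows. Chance flags about 1 in 20 groups, and 5.99% were found here. Of the 38, 15 were day 2 replicate 4, 8 were day 28 replicate 2 and 7 were day 28 replicate 4. Day 28 replicate 2 has the most marrow signal of its group, and both replicates 4 have the most muscle signal of theirs; the part of these tissues in the values below was not tested.

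Day 28 replicate 2 was the highest of its group for Mcm6 at 7.69, Pole2 at 6.63, Tlr1 at 6.42 and the mean of DNA replication at 7.86. It was the lowest for Fabp4 at 7.26, Gnas at 8.47, the mean of elastic fibre genes at 9.72 and the mean of integrins and laminins at 8.74. Day 28 replicate 4 was the highest for Mir27b at 6.90. It was the lowest for Scd at 6.92 and for the means of complement at 8.95, fatty acid and sterol synthesis at 8.20, matrix metalloproteinases at 8.93, matrix protease inhibitors at 8.69 and small leucine-rich proteoglycans at 11.14. Day 28 replicate 3 was the lowest for Atf3 at 9.16 and the highest for Rplp0 at 8.30, and replicate 1 was the highest for the mean of joint lubrication genes at 9.73.

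Day 2 replicate 4 was the highest of its group for Adamts9 at 9.72, Atf3 at 8.24, Atp6v0d2 at 8.15, Mmp16 at 9.21, Nrp1 at 10.74, Pck1 at 9.19, Ptgs2 at 8.21, Tlr7 at 10.76 and the mean of smooth muscle markers at 9.47. It was the lowest for Bmp5 at 7.40, C1s at 9.32, Lbp at 11.08, Mfap4 at 9.12, Mmp2 at 11.40 and the mean of elastic fibre genes at 9.16. Day 2 replicate 1 was the highest for Itga11 at 9.18 and Tnfrsf11a at 9.88, and replicate 3 for Cd36l1 at 10.73 and Flt3 at 9.03. Day 2 replicate 2 was the lowest for Cd9 at 9.86.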

How the results depend on the processing

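All 256 called genes named above kept their direction under every alternative run, and 205 of them passed the threshold in each. Welch's test, with p adjusted over all probe sets, ended the call of 43. Leaving out the 2 day 28 arrays with the least marrow signal ended that of 21. Not all of these genes are named in what follows. Leaving out single arrays ended the call of Alpl, C3, C6, Cd68, Chad, Fgf23, Fgfr3, Hapln1, Hemgn, Ibsp, Il11, Kit, Plin5, Prg4, S100a9, S100b or Vsig4 in at least 1 run, with adjusted p of 0.0506 (Cd68 without day 2 replicate 2) to 0.128 (Fgf23 without day 2 replicate 4). Fgf23, Vsig4, S100a9, Cd68 and Hemgn lost the call in most of these runs. With the marrow covariate Agtr1b, Alox15, C3, C6, Cd68, Chrdl1, Hemgn, Igf2, Irak2, Kit, Mir24-2, Per3, Plin5, Prg4, Rsad2, S100a9, S100b, Scd and Vsig4 were no longer called (adjusted p of 0.056 for Chrdl1 to 0.716 for S100a9); of these the differences of Alox15, C3, Hemgn, Rsad2 and S100a9 shrank by over 1.5 times, to -0.45, -0.24, -0.14, -0.43 and -0.23, and those of the other 14 moved by less. The number of probe sets higher at day 28 was 2104 with marrow markers as a covariate and 2517 without the 2 day 28 arrays with the least marrow signal, an alternative chosen after seeing the data. The methods' t-test, at an unadjusted p under 0.0001 and over 2-fold, called 152 higher and 194 lower; every other alternative kept the 4 counts over all probe sets within 1.5 times, and leaving out each array in turn gave 2996 to 3640 higher and 3611 to 4174 lower. Day 28 and day 2 arrays with the same replicate number did not deviate together (correlations of -0.182 to 0.155), and with the replicate block 3549 probe sets were higher and 4241 lower, 11 neutrophil and 11 erythroid markers among the lower.

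Uncalled genes changed sign as follows, and the cause was not tested. Adamts4 gave 0.0146 under cyclic loess, and -0.096 to 0.015 with single arrays left out. Adamts5 gave -0.0065 with median centring, -0.162 with the marrow covariate, -0.0679 without the 2 arrays with the most muscle signal, -0.112 without the 2 marrow-poor arrays and -0.0753 to 0.173 with single arrays left out; in the same runs Acta1 ran between -0.0327 and 1.21. With the marrow covariate Mmp3 gave -0.0862, Mmp8 0.225 and Mpo 0.0371. List medians turned with the marrow covariate for neutrophil (0.0914), B cell (0.265) and lysosome genes (-0.0044). The lysosome median was also -0.0327 with median centring, -0.0167 without the 2 marrow-poor arrays and -0.0231 to 0.0226 with single arrays left out. The T and NK cell median was 0.0534 without the 2 muscle-rich arrays, 0.0389 without the 2 marrow-poor arrays and -0.113 to 0.0063 with single arrays left out. That of mast cell markers was -0.0243 to 0.193 with single arrays left out, and that of the unfolded protein response 0.0003 without the 2 marrow-poor arrays.

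With 4 arrays a group, small differences could not be resolved, and by the study's methods each array pooled 2 rats, so variation between animals was not measured.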

Other observations

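The 3 nuclear receptors of the Nr4a family, immediate early genes that many stimuli induce rapidly, were higher at day 28; they belong to no list and were chosen after their values were seen. Nr4a1 read 10.52, 10.22, 9.18 and 9.94 at day 28, against 7.83, 7.98, 7.85 and 7.88 at day 2 (2.08 ± 0.23, adjusted p = 1.03e-05), Nr4a2 read 10.84, 10.89, 10.20 and 10.28 at day 28, against 8.40, 8.52, 8.75 and 8.57 at day 2 (1.99 ± 0.15, adjusted p = 2.44e-07) and Nr4a3 read 9.32, 9.00, 9.19 and 9.08 at day 28, against 7.23, 7.28, 7.47 and 6.88 at day 2 (1.93 ± 0.14, adjusted p = 2.25e-07). Relative to the intact arrays Nr4a1 stood at -0.66 (day 2), 0.37 (day 14) and 1.42 (day 28).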
